A study of Homo sapiens with 8 samples.

Results

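In A2780 cells, a human ovarian carcinoma line, 224 γH2AX peaks of the Pt-ttpy list lay on a cisplatin peak in stretches of the genome where the list of untreated cells held no peak. They are called the shared quiet peaks here. They were selected on peak positions in all 3 deposited lists: chromosomes 1 to 22 were cut into windows of 1 Mb (hg19), windows with the midpoint of an untreated peak were dropped, as was chromosome 1 from 142 Mb on, and a Pt-ttpy peak in a remaining window was kept if it overlapped a cisplatin peak by 1 bp or more. The 224 peaks were part of 18223 in the whole Pt-ttpy list and of 17416 on chromosomes 1 to 22, or 1.29% of these. They matched 223 of the 26121 peaks of the cisplatin list.

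The series compared Pt-ttpy (IC80 for 96 hours), cisplatin (its own IC80 for 96 hours) and no treatment, with 2 γH2AX ChIP samples each, and 2 input samples of untreated cells. Each group has a single peak list that the labels name for its 2 replicates, so a list counts as 1 sample, no spread between cultures can be given, and no p-value was computed. The groups share the cell line and the antibody and differ in the drug only, as far as the labels say. Input values were not analysed here.

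γH2AX is histone H2AX phosphorylated at its tail by the kinases of the DNA damage response. The mark is laid down around double-strand breaks and stalled forks and spreads over the chromatin beside them. Cisplatin forms crosslinks between neighbouring purines, most often guanines, which block replication and are removed by nucleotide excision and crosslink repair. Pt-ttpy is a platinum complex with a terpyridine ligand that binds G-quadruplexes, folded structures of guanine-rich DNA found at telomeres and in many promoters. The title of the series names telomeres and guanine-rich regions as places of damage by Pt-ttpy.

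The word quiet holds for the untreated list as deposited and not for the untreated cells. Peak numbers in that list reached 18049, of which 8848 were missing from it. Around a shared quiet peak, between the retained untreated peaks on both sides, a median of 12 numbers was missing, with a lowest of 0 and a highest of 50. The 224 peaks lay in 118 such intervals, which lacked 1471 untreated numbers in all. Missing numbers could stand for at most 220 of the 224 peaks, and for 644 of all 658 Pt-ttpy peaks of quiet windows. A single shared peak lay where no untreated number was missing. It was on the long arm of chromosome 6 at chr6:128851443-128851545, with a fold of 4.94, matched by a cisplatin peak at chr6:128851442-128851554 with a fold of 4.85. Its nearest retained untreated peak was 1621087 bp away. For the other 223 peaks, an untreated peak that was called and is missing from the list cannot be told apart from no untreated peak.

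The windows were sparse in both drugs. Of 2789 windows, 2314 were quiet, and 2163 of these held assembled sequence. A Pt-ttpy peak was called in 413 of the 2163 windows (19.1%), a cisplatin peak in 1089 (50.3%), both in 303 (14.0%), and a shared peak in 176 (8.14%). Shared peaks were mostly single: 153 windows held 1, 15 held 2, and 8 held 3 or more.

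The share of peaks on a peak of the other drug was lower in quiet windows than elsewhere in the same list. Of 658 Pt-ttpy peaks in quiet windows, 224 (34.0%, exact binomial 95% interval 30.4 to 37.8) lay on a cisplatin peak, against 69.8% of the Pt-ttpy list on chromosomes 1 to 22 and 81.4% in windows with an untreated peak. Of 2167 cisplatin peaks in quiet windows, 223 (10.3%, 9.04 to 11.6) lay on a Pt-ttpy peak, against 47.7% on chromosomes 1 to 22 and 69.8% in windows with an untreated peak. With a -log10 q of at least 5 in both lists, the shares in quiet windows were 45.7% for Pt-ttpy and 28.5% for cisplatin. The shares of other windows and of the lists above had no such limit, so they cannot be set beside these values. The rule used these overlaps, so the shares are a description with no test, and the intervals cover counting error only. Peak density and width differed as well. The 2314 quiet windows of 2789 held 2167 cisplatin peaks, and the windows with an untreated peak held 13921. Shared cisplatin peaks had a median width of 125 bp in quiet windows and 264 bp in windows with an untreated peak. The part of density and width in these shares, here and by fold below, was not tested. The 434 Pt-ttpy and 1944 cisplatin peaks of quiet windows that lay off the other drug are the peaks set beside the shared ones below.

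The share on the other drug was higher in classes of higher fold. The fold is the authors' ratio of the peak's pileup of reads over a background that is constant across each list, so it ranks peaks within a list and gives no order between drugs. In the Pt-ttpy list the share on a cisplatin peak in quiet windows was 13.2% of 91 peaks with a fold under 3, 21.4% of 229 from 3 to 3.5, and 36.7% of 128 from 3.5 to 4. It was 43.3% of 97 peaks from 4 to 4.5, 63.1% of 65 from 4.5 to 5, and 68.8% of 48 with a fold of 5 or more. Each class had a higher share than the one below it. The intervals of neighbouring classes overlapped, except between 3 to 3.5 (16.3 to 27.3) and 3.5 to 4 (28.4 to 45.7). The upper bound was 21.9% in the lowest class, and the lower bound was 53.7% in the highest. The rule used the overlap with cisplatin peaks, and peaks near each other are not independent. The intervals therefore describe counting error and give no test between classes. In the cisplatin list the share in quiet windows ran from 1.44% of 695 peaks under 3 to 66.3% of 86 peaks at 5 or more. Quiet windows held no fold over 6.88 in the Pt-ttpy list and none over 7.44 in the cisplatin list. From a fold of 5 up to these values, a range set after seeing the data, 98.2% of 2314 Pt-ttpy and 95.7% of 3019 cisplatin peaks in windows with an untreated peak were on the other drug. In that range the median Pt-ttpy fold was 5.33 in quiet windows and 5.72 in windows with an untreated peak. Of the 48 Pt-ttpy peaks of quiet windows in this range, 15 had no cisplatin peak on them. The strongest of these lay at chr11:86760427-86760549 with a fold of 6.11. The strongest cisplatin peak of quiet windows without a Pt-ttpy peak lay at chr2:148952263-148952377, with 36 summit reads.

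**Figure D1:**
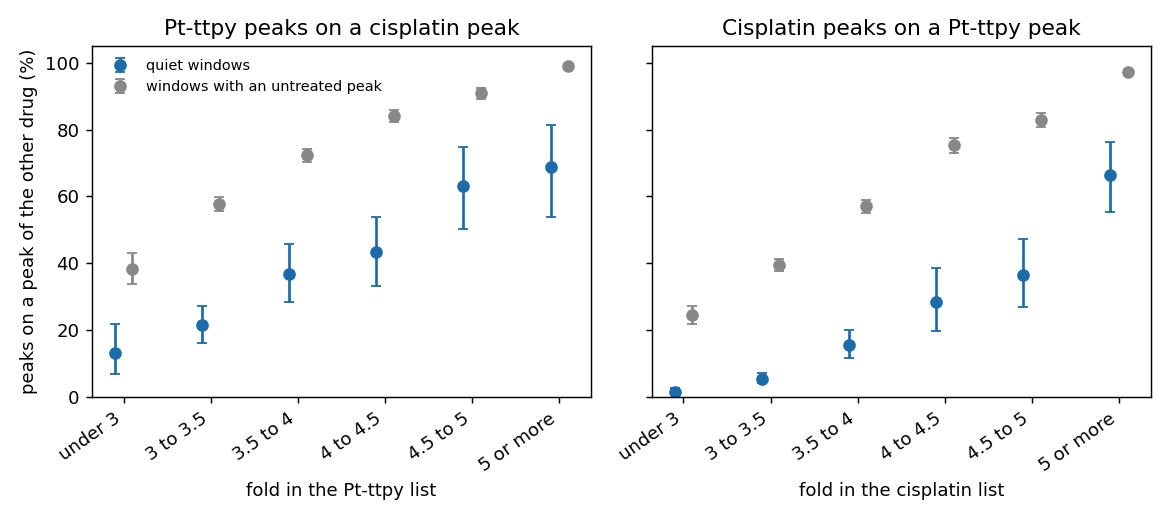
Share of Pt-ttpy peaks on a cisplatin peak (left panel) and of cisplatin peaks on a Pt-ttpy peak (right panel), in percent, by the peak's fold in its own list. Blue points are quiet windows and grey points windows with an untreated peak, with exact binomial 95% intervals; in every class the blue point lies below the grey one, from 13.2% to 68.8% for Pt-ttpy, and the highest class reaches higher folds in the grey points.

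Within each list the shared quiet peaks stood above the quiet peaks of 1 drug alone. Their median fold in the Pt-ttpy list was 4.04 (lowest 2.75, highest 6.88), against 3.26 for the 434 Pt-ttpy peaks off cisplatin and 3.91 for the list on chromosomes 1 to 22. The matching cisplatin peaks had a median fold of 4.15 (2.77 to 7.44), against 3.12 for the 1944 cisplatin peaks off Pt-ttpy and 3.64 for the list. A -log10 q of at least 5 was reached by 139 of the 224 shared Pt-ttpy peaks (62.1%, exact binomial interval 55.3 to 68.4). The share of the Pt-ttpy list, 57.3%, lies inside this interval. The limit was reached by 150 of the 223 cisplatin matches (67.3%, 60.7 to 73.4), where 46.6% of that list did. Off the other drug in quiet windows these shares were 29.5% and 14.1%. Windows with an untreated peak showed a difference in the same direction. There the median Pt-ttpy fold was 4.69 on cisplatin and 3.39 off it, with 77.1% and 29.9% at this limit. The median cisplatin fold there was 4.85 on Pt-ttpy and 3.46 off it, with 81.4% and 32.2%. The difference was thus not particular to quiet windows. Shared quiet peaks had a lower median fold in both lists than shared peaks elsewhere. The q value is the peak caller's p-value adjusted within its list, so this limit does not equal the same depth in both lists.

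The values rest on few reads. From the steps of the fold, a shared quiet peak had a median of 30 reads at its summit in the Pt-ttpy list (lowest 20, highest 52), over a background of 6.49 reads, and 23 in the cisplatin list (15 to 42), over a background of 4.78. Counting error alone puts a Pt-ttpy peak of 30 reads between a fold of 2.78 and 5.70, and a cisplatin peak of 23 reads between 2.70 and 6.15 (exact Poisson 95% intervals). The quartiles of the shared Pt-ttpy peaks, 25 and 35 reads, lie inside that range, so the order of peaks of middle rank is not resolved at this depth.

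The strongest shared quiet peak lay on the long arm of chromosome 10 at chr10:75084115-75084251. It had a fold of 6.88 and 52 summit reads after Pt-ttpy, and its cisplatin match at chr10:75084149-75084259 had a fold of 4.85 and 27 summit reads. The peak at chr6:109970883-109971029 had a Pt-ttpy fold of 6.62 with 50 reads, and its match at chr6:109970890-109971022 a cisplatin fold of 6.06 with 34 reads. Both pairs had summits within 8 bp of each other.

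At a Pt-ttpy fold of 6.11, or 46 reads, 4 peaks were tied. The peak at chr16:85857148-85857284, the only shared quiet peak on the long arm of chromosome 16, had a cisplatin fold of 6.75. The peak at chr2:157113961-157114092 had a cisplatin fold of 6.23. The peak at chr18:46037615-46037743 had the highest cisplatin fold of all matches, 7.44 with 42 reads, tied with 1 other. The peak at chr1:4999612-4999726 on the short arm of chromosome 1 had a cisplatin fold of 6.75. Their summits lay 10, 4, 2 and 9 bp from the cisplatin summits in this order.

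The next 6 by fold were spread over 6 chromosomes. The peaks at chr20:45417492-45417637 and chr8:89700449-89700583 had a Pt-ttpy fold of 5.98 each, with cisplatin folds of 5.71 and 4.67. The peak at chr10:5220799-5220933 on the short arm had a Pt-ttpy fold of 5.85 and a cisplatin fold of 5.02. The last 3, at a Pt-ttpy fold of 5.72, were chr14:46075753-46075872, with a cisplatin fold of 7.44, chr19:58241812-58241923, with 7.27, and chr4:10681744-10681853, with 6.23. None of the 12 had another shared quiet peak within 10 kb, and all 12 were between 110 and 147 bp wide. Between 1 and 43 untreated numbers were missing around them.

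The folds of the 2 lists went together over the pairs. Of 228 pairs, 211 were matched one to one, 4 Pt-ttpy peaks lay on more than 1 cisplatin peak, and 5 cisplatin peaks held more than 1 Pt-ttpy peak. Over the 211 pairs Spearman's rho of the folds was 0.723 and Pearson's r of the log2 folds 0.726. The 33 pairs with a Pt-ttpy fold of 5 or more had cisplatin folds from 3.64 to 7.44, with a median of 5.19. The 54 pairs with a Pt-ttpy fold under 3.5 had cisplatin folds from 2.77 to 5.19, with a median of 3.46, so the ranges overlapped. The points are regions of the same cell line, and what they have in common (mappability, copy number, base composition) was not measured, so the correlation describes these lists. A -log10 q of at least 5 was reached in both lists by 122 pairs (53.5%), in the Pt-ttpy list only by 18, in the cisplatin list only by 31, and in neither by 57.

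**Figure D2:**
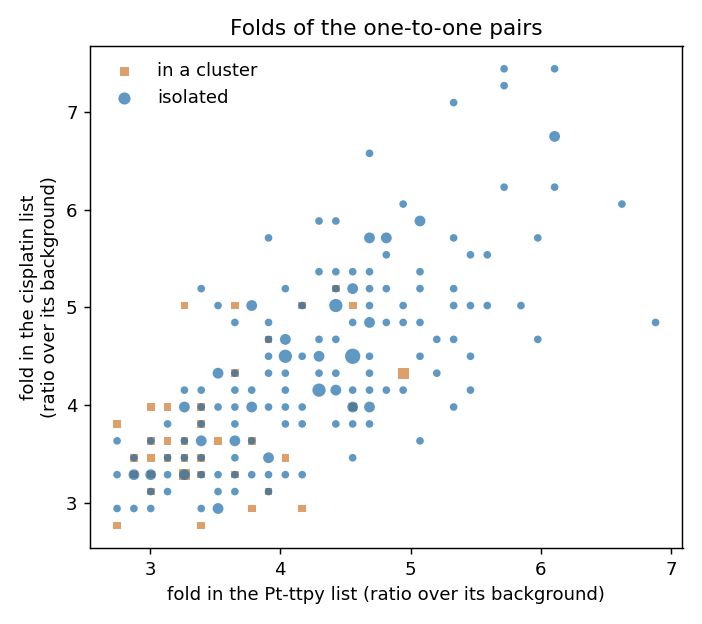
Fold in the cisplatin list (vertical axis) against fold in the Pt-ttpy list (horizontal axis), both ratios over the list's own background, for the 211 pairs matched one to one. Squares have another shared quiet peak within 10 kb, circles do not, and larger marks stand for several pairs at the same values; Spearman's rho was 0.723.

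In most pairs the peaks of the 2 drugs had their summits close together. The summits of a pair were a median of 19 bp apart (lowest 0, upper quartile 53.2, highest 834), with 131 of 228 pairs (57.5%) within 25 bp and 193 (84.6%) within 100 bp. The overlap covered a median of 68.3% of the bases held by either peak, and 162 pairs (71.1%) had at least 50% of these bases in common. All 33 pairs with a Pt-ttpy fold of 5 to 8 had summits within 50 bp, with a median of 8 bp and a largest distance of 36 bp. In windows with an untreated peak, the 3173 pairs of the same fold range had a median distance of 22 bp, and 65.1% were within 50 bp. At a fold under 3.5 the medians were 65 bp for 64 pairs in quiet windows and 85 bp for 1498 pairs elsewhere. The rule asked for 1 bp of overlap, so some closeness was fixed by it, most of all for narrow peaks.

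**Figure D3:**
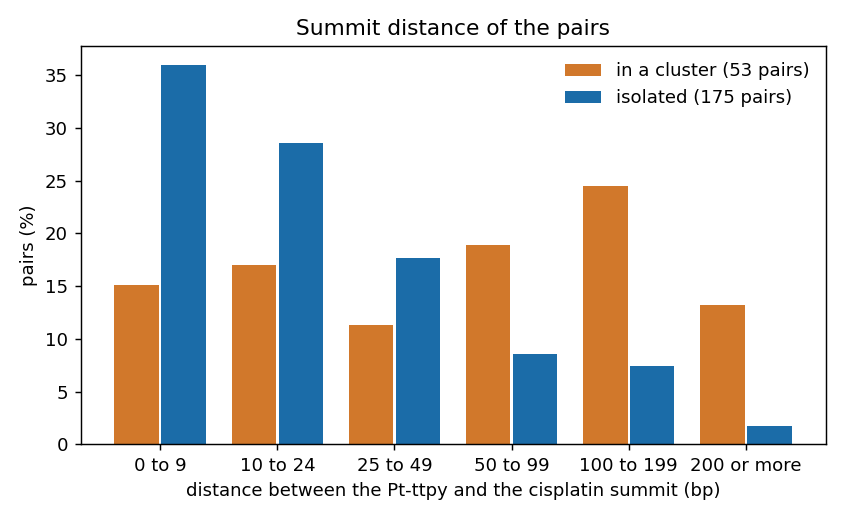
Percent of pairs by the distance in bp between the Pt-ttpy and the cisplatin summit, for pairs whose Pt-ttpy peak has another shared quiet peak within 10 kb (orange, 53 pairs) and for isolated ones (blue, 175 pairs). The medians were 54 bp and 16 bp.

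Shared quiet peaks were narrow, and those of high fold had no larger median width than those of low fold. Their median width was 121 bp in the Pt-ttpy list (lowest 101, upper quartile 164, highest 675) and 125 bp in the cisplatin list (101 to 1039), with 84.8% of the Pt-ttpy peaks at 200 bp or less. At a Pt-ttpy fold from 5 to 6.88, 33 shared quiet peaks had a median width of 128 bp (107 to 339), against 287 bp for 2272 shared peaks in windows with an untreated peak. In the cisplatin list the 57 matches with a fold from 5 to 7.44 had a median width of 131 bp, against 302 bp for 2888 shared peaks elsewhere. Shared quiet Pt-ttpy peaks had a median width of 166 bp at a fold of 3 to 3.5, 114 bp at 4.5 to 5 and 128 bp at 5 or more. Quiet Pt-ttpy peaks off cisplatin had 128 bp, 106 bp and 121 bp in these classes. In windows with an untreated peak, shared Pt-ttpy peaks had 184 bp, 247 bp and 337 bp in the same classes, the last of which reached higher folds there. Spearman's rho of fold and width was -0.182 over the 224 shared quiet peaks and 0.363 over 9842 shared peaks elsewhere, given as a description of peaks in 1 list each. Quiet Pt-ttpy peaks off cisplatin were of like width, with a median of 119 bp. Peaks off the other drug in windows with an untreated peak were also narrow at a fold of 5 or more. Their median width was 124 bp for 42 Pt-ttpy peaks and 128 bp for 131 cisplatin peaks. A small width at high fold was thus not particular to quiet windows or to shared peaks. The labels give sonicated fragments of 200 to 700 bp, and how far the mark spreads around a called region was not measured.

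**Figure D4:**
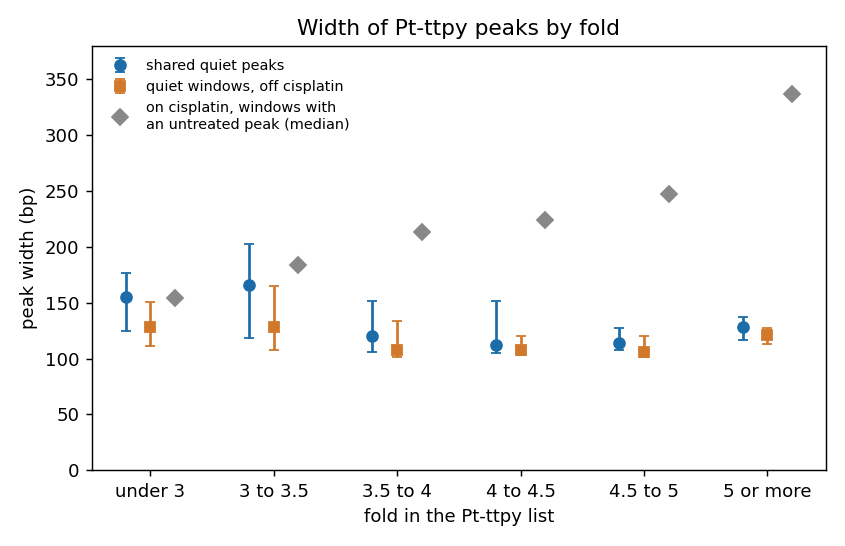
Width in bp of Pt-ttpy peaks by fold class. Circles are shared quiet peaks and squares quiet peaks off cisplatin, both as medians with quartiles, and diamonds are medians of peaks on cisplatin in windows with an untreated peak; at a fold of 5 or more the circle lies at 128 bp and the diamond at 337 bp, a class that reaches higher folds for the diamond (26.3) than for the circle (6.88).

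The widest shared quiet peaks were not the strongest. The widest, at chr16:30287849-30288523, spanned 675 bp with a Pt-ttpy fold of 3.13, and lay on 2 cisplatin peaks. The one with the larger overlap, chr16:30288126-30288493, had a fold of 3.81 and its summit 10 bp away, and the other, chr16:30287584-30287990, had a fold of 3.29 and its summit 834 bp away. The next, at chr17:20784215-20784698, spanned 484 bp with a fold of 4.43. The peak at chr14:28309517-28309975 spanned 459 bp with a fold of 3.91. The other 2 of the widest 5 were chr1:102300334-102300737, with 404 bp and a fold of 3.13, and chr6:68112338-68112730, with 393 bp and a fold of 4.56. No fold of these 5 was in the top 12, and 2 of the 5 had another shared quiet peak within 10 kb.

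Shared quiet peaks that lay in clusters had a lower median fold than isolated ones. A peak was counted as clustered where the next shared quiet peak was within 10 kb. This held for 50 of the 224 peaks (22.3%), in 16 clusters on 10 chromosomes, and 10 of the clusters were pairs. A single cluster on chromosome 17 held 12 of the 50. No clustered share of other peaks is given, so whether 22.3% is usual for the list is not known. The share depended on the rule: 6.56% of peaks that reached a -log10 q of 5 in both lists were clustered, and it was 11.7% with at least 50% of both peaks covered, 14.0% with summits within 100 bp, and 8.74% without the 8 windows of 3 or more shared quiet peaks. Peaks in clusters had a median fold of 3.39 (2.75 to 4.94), a median width of 157 bp, and 15 of 50 (30.0%) reached a -log10 q of 5. The 174 isolated peaks had a median fold of 4.30 (2.75 to 6.88), a median width of 117 bp, and 124 (71.3%) reached it. The summits of pairs were a median of 54 bp apart in clusters and 16 bp apart for isolated peaks. The ranges of fold overlapped, and no cluster peak reached a fold of 5.

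The largest cluster lay on the short arm of chromosome 17, at chr17:20768288-20784698, 1478550 bp from the centromere gap. In these 16.4 kb there were 12 shared quiet peaks, with Pt-ttpy folds from 2.88 to 4.43 and a median of 3.65, and 10 cisplatin peaks, with folds from 3.46 to 5.19. Their window held 13 Pt-ttpy peaks, of which 12 were shared (92.3%), and 15 cisplatin peaks, of which 10 were (66.7%). The pair with the highest cisplatin fold was chr17:20784215-20784698, with a Pt-ttpy fold of 4.43 from 33 reads, on a cisplatin peak at chr17:20784192-20784551 with a fold of 5.19 from 29 reads. The peak at chr17:20774429-20774722 had a Pt-ttpy fold of 4.17, and its summit lay 1 bp from that of the cisplatin peak at chr17:20774379-20774731, which had a fold of 5.02. A cisplatin peak of 1039 bp at chr17:20781134-20782172 held a pair of Pt-ttpy peaks, chr17:20781148-20781415 with a fold of 3.78 and chr17:20781665-20781878 with a fold of 4.43. The nearest untreated peak was 446 kb away, and 11 untreated numbers were missing between the retained ones on both sides.

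The other dense windows held a smaller part of their peaks in common. On 13q between 81 and 82 Mb, 7 of 21 Pt-ttpy and 8 of 43 cisplatin peaks were matched, with Pt-ttpy folds from 2.88 to 3.78 and cisplatin folds from 2.94 to 3.98. This window is far from the centromere gap (62.5 Mb) and from the nearest untreated peak (8.23 Mb), and 34 untreated numbers were missing around it. On 16p between 21 and 22 Mb, 5 of 9 Pt-ttpy and 5 of 23 cisplatin peaks were matched, with Pt-ttpy folds from 3.01 to 4.30. On 14q between 48 and 49 Mb, 4 of 16 Pt-ttpy and 4 of 35 cisplatin peaks were matched, and no Pt-ttpy fold was over 3.52. On 8p between 8 and 9 Mb, 4 of 10 Pt-ttpy and 4 of 19 cisplatin peaks were matched, and an untreated peak lay 125 kb away. The 12 of 13 on chromosome 17 is the highest share of Pt-ttpy peaks among these 5 windows.

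All 22 chromosomes held shared quiet peaks, from 2 on chromosome 22 to 20 on chromosome 5. Per 100 quiet windows with assembled sequence the median over chromosomes was 10.2. Chromosome 17 had the highest value, 30.4 (17 peaks in 56 windows), followed by chromosome 16 with 19.4 (12 in 62) and chromosome 19 with 16.2 (6 in 37). Chromosome 10 had the lowest, 4.39 (5 in 114). Without windows of 3 or more shared quiet peaks, a limit set after seeing the data, chromosome 17 had 9.09 (5 in 55) and chromosome 16 had 6.67 (4 in 60), while chromosome 19 held no such window. Chromosome 13 then had 3.66 (3 in 82). Chromosome 5 had 20 shared quiet peaks in 20 windows, while the 10 of chromosome 13 fell in 4 windows.

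**Figure D5:**
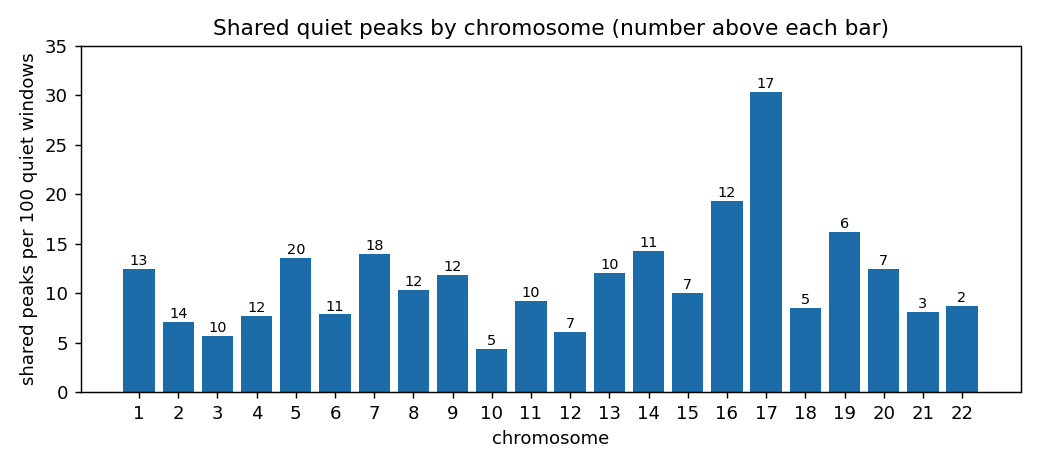
Shared quiet peaks per 100 quiet windows of 1 Mb with assembled sequence, by chromosome, with the number of peaks above each bar. Chromosome 17 stands at 30.4, with 12 of its 17 peaks in 1 window.

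Shared quiet peaks lay mostly away from centromeres. Within 5 Mb of a centromere gap there were 27 of 224 (12.1%), 12 of them in the chromosome 17 cluster, against 71.9% of shared Pt-ttpy peaks in windows with an untreated peak. Without the window of that cluster the share was 7.08%. The rule dropped windows by where untreated peaks lay, so it can fix part of this difference. Among Pt-ttpy peaks of quiet windows off cisplatin the share was 4.61%, or 20 of 434. Given without a share for other peaks, there were 2 within 1 Mb of a chromosome end. One was chr19:58241812-58241923 of the top 12, and the other was chr21:48117716-48117883, 12096 bp from the end of the long arm, with a Pt-ttpy fold of 3.26 and a cisplatin fold of 3.46. The distance to the nearest untreated peak had a median of 2607563 bp, and 168 of the 224 peaks were over 1 Mb from one. The rule kept windows without an untreated peak, so it can fix part of this distance, and no value for other peaks is given. The 3 under 100 kb from one lay together on the long arm of chromosome 2, from 173000305 to 173025974, with Pt-ttpy folds of 3.65, 3.65 and 4.04.

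Counting for each shared quiet peak its largest overlap with a cisplatin peak, the smallest was 8 bp, at chr1:98422884-98423054 with a Pt-ttpy fold of 2.75, on a cisplatin peak with a fold of 2.77. The next were 19 bp at chr18:68353285-68353389, with a Pt-ttpy fold of 3.52, and 20 bp at chr13:81488502-81488627, with 3.78. Just outside, the Pt-ttpy peaks at chr13:81493569-81493769, with a fold of 3.39, and at chr2:173016655-173016755, with a fold of 3.13, had a cisplatin peak 2 bp away. Of the 434 unshared Pt-ttpy peaks in quiet windows, 27 (6.22%) had a cisplatin peak closer than 200 bp and 145 (33.4%) one closer than 10 kb, and the median distance was 109 kb.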

How the data were processed

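A2780 chromatin was immunoprecipitated with an antibody against γH2AX and sequenced as single reads of 50 bases, per the labels' protocols. Alignment and peak calling used BWA 0.7.5 and MACS2 2.1.0 with hg19, per the submitters' processing notes. Their settings, the control of each list and how replicates were joined were not stated there. The names of both treated lists join the drug with the abbreviation that names the untreated list. Whether untreated cells were the control of the treated lists was not stated. The authors deposited for each peak a fold (a ratio over background), a -log10 p-value, a -log10 q-value, a whole-number score (the -log10 q times 10, cut), and the summit position as an offset.

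Overlaps, windows and distances were computed with Python 3.11.15, numpy 2.4.6, pandas 2.3.3 and scipy 1.17.1, and plots with matplotlib 3.10.9. Coordinates are 1-based. Summit reads were derived from the spacing of the folds, with fold taken as (pileup + 1)/(background + 1) and a scaling of 0.798 in the Pt-ttpy list. The reads came out whole within 0.000122, and Poisson tail probabilities from these pileups differed from the deposited -log10 p by at most 0.00306. Read totals are otherwise unknown. Centromere gaps and chromosome lengths were entered from general knowledge of hg19, and no peak lay inside a gap. Missing untreated numbers were counted between the retained peaks on both sides. In the whole untreated list 45 regions were out of position order. Regions named are the 12 with the highest Pt-ttpy fold, the 5 widest, the 5 windows with most shared quiet peaks, and those at the edge of the rule. The peak set, the lists and these choices were made with earlier results of these data known. Peaks near each other are not independent, so binomial intervals cover counting error only. Alternatives were stricter overlaps, other windows, merged peaks, a -log10 q limit and leaving out regions. No genome or annotation of hg19 was used here, so genes, base composition and motifs were not analysed here.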

Additional observations from a re-analysis of the deposited data

How the results depend on the processing

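Over 11 alternatives, 83 of 111 recomputed values stayed within the 95% interval of the reported value, or within 1.5 times of a reported count, and 28 did not. Only windows without missing untreated numbers left 1 shared quiet peak in 1 window, with shares of 50.0% (1 of 2) for Pt-ttpy and 5.26% for cisplatin, and medians were then not computed. With a -log10 q of at least 5 in both lists, 122 peaks in 114 windows remained, the share of Pt-ttpy peaks on cisplatin was 45.7% and of cisplatin on Pt-ttpy 28.5%, the median folds were 4.56 and 4.85, the median summit distance 11.5 bp, and 6.56% were in clusters. With at least 50% of both peaks covered, the shares were 26.0% and 7.89%, the median Pt-ttpy fold 4.30, 72.5% reached a -log10 q of 5, the median summit distance was 14 bp and 11.7% were in clusters. With summits within 100 bp, the shares were 29.3% and 8.91%, the distance 15 bp and 14.0% in clusters. With peaks within 1 kb merged, 15.4% were in clusters. With windows of 2 Mb, 5.62% lay within 5 Mb of a centromere gap, and 7.08% without the chromosome 17 window. Without all 8 windows of 3 or more shared quiet peaks the median Pt-ttpy fold was 4.30, 70.5% reached a -log10 q of 5 and 8.74% were in clusters. The last pair of alternatives was chosen after seeing the data. Windows started at 0.5 Mb, leaving out the long arm of chromosome 16 and leaving out peaks within 5 Mb of a gap moved no value. Shares that an alternative fixes itself were not recomputed, and base composition and motifs were not run. No paired analysis was possible because each group has 1 peak list for both replicates, and leaving out a replicate could not be run for the same reason. Input depth and mappability at these places were not tested.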

Other observations

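Quiet windows outside the rule also held peaks of both drugs. On chromosome X, 15 of 43 Pt-ttpy peaks in windows without an untreated peak lay on a cisplatin peak (34.9%, exact binomial 95% interval 21.0 to 50.9), and 15 of 165 cisplatin peaks lay on a Pt-ttpy peak (9.09%). These 15 had a median Pt-ttpy fold of 5.07 (3.78 to 6.49) and a median width of 119 bp. On chromosome 1 from 142 Mb on, 147 of 1062 Pt-ttpy peaks in such windows lay on a cisplatin peak (13.8%, 11.8 to 16.1), and 147 of 2829 cisplatin peaks lay on a Pt-ttpy peak (5.20%). These 147 had a median fold of 3.13 (2.62 to 5.33) and a median width of 149 bp. The 2 sets differ in density as well. Windows with a peak of either drug numbered 48 on this part of chromosome 1, with 1062 Pt-ttpy and 2829 cisplatin peaks. On chromosome X they numbered 70, with 43 Pt-ttpy and 165 cisplatin peaks.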
